A study of Mus musculus with 2 samples.

Results

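The Hox genes of mice are the protein-coding genes whose symbols join Hoxa, Hoxb, Hoxc or Hoxd to a number, and 39 of the 21827 protein-coding genes of the GENCODE M21 annotation (mm10) met that rule. They lie in 4 clusters, with 11 genes in HoxA, 10 in HoxB, 9 in HoxC and 9 in HoxD. The number is the paralogue number, which runs from 1 to 13 and marks genes of common descent at like places in the 4 clusters. Chromatin accessibility was measured by DNase-seq, in which the enzyme DNase I cuts open chromatin in isolated nuclei and the cut ends are sequenced. The samples were 2 libraries of 1 group, whole thymus tissue of adult female B6CASTF1/J mice aged 18 to 20 months, a hybrid of the B6 and CAST strains. There was no second group to compare them with. The libraries are numbered as replicates 1 and 2, share a donor record and have separate biosample records, but no label says that 2 animals were used, and their spread can therefore be technical.

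Hox genes encode homeodomain transcription factors that give cells their position along the body axis in the embryo, and the order of the genes in a cluster matches the order in which they are used along that axis. In tissues where a Hox cluster is silent, Polycomb complexes usually hold it in a compact state, while Trithorax complexes keep active members open and CTCF with cohesin sets boundaries within the cluster. In the thymus, paralogue group 3 genes take part in forming the organ from the pharyngeal pouches, and blood stem and progenitor cells use members of the middle of HoxA and HoxB, most of which are turned down as T cells mature.

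Few Hox promoters were accessible, and those that were had weak peaks. A promoter was counted as open when a peak of the shorter, main peak list was centred no more than 1 kb from one of the gene's start sites in both libraries. By that rule 6 of 39 Hox genes (15.4%) were open, against 53.4% of the other 21788 protein-coding genes. Among the open members were Hoxa4 and Hoxa7 in HoxA, Hoxb4 and Hoxb5 in HoxB, and Hoxc10 in HoxC. HoxD had 0 open promoters among 9 genes. With the longer peak list of each library the count was 9 of 39 (23.1%), against 57.8% of other genes.

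Sequences of 7 accessible sites follow, because later results turn on them. Among them are the promoter peaks of Hoxa4 and Hoxb5. The others lay over 1 kb from the start sites used here and were present in both libraries. They are the site with the highest mean signal in each cluster, and the next highest in HoxB. All 7 were read from the GRCm38 assembly, the build of mm10, on the plus strand, over the peak interval of replicate 1. That assembly is of the B6 strain. Motif matches in this report therefore describe the B6 copy of each site, and the CAST copy was not read. HoxA genes lie on the minus strand and the genes of the other 3 clusters on the plus strand. Capitals mark 3 kinds of match: TGATNNAT in the Hoxa4 sequence, a motif that HOX proteins bind with PBX partners; GGTGGCGC in 3 others, which are letters of the inner part of the CTCF motif; and in the site upstream of Hoxb8 a match to the CTCF consensus with at most 1 mismatch. The sites in introns of Hoxb6 and Hoxd3 hold none of these.
Hoxa4 promoter, chr6:52191881-52192080: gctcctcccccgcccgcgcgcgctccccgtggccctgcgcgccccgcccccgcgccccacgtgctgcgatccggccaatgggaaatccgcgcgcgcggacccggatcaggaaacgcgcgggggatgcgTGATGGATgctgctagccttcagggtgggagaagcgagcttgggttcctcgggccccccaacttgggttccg
Hoxa11 to Hoxa13 interval, chr6:52257041-52257220: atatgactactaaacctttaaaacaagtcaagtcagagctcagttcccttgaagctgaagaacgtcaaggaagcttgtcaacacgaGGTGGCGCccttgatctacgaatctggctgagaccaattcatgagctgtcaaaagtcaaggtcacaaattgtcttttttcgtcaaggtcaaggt
Hoxb8 upstream site, chr11:96278901-96279060: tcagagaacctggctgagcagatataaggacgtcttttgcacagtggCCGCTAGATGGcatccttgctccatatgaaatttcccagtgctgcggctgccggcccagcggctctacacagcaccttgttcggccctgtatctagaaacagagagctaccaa
Hoxb6 intron site, chr11:96294601-96294800: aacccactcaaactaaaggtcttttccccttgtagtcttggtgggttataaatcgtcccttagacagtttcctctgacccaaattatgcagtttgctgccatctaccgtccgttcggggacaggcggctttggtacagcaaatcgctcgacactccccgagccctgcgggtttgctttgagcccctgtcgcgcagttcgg
Hoxb5 promoter, chr11:96303192-96303289: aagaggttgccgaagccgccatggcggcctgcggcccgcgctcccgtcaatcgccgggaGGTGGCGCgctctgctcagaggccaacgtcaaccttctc
Hoxc8 upstream site, chr15:102987521-102987700: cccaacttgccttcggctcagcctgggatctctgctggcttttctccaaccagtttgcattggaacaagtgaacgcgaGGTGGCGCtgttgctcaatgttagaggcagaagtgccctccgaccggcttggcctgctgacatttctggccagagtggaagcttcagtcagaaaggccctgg
Hoxd3 intron site, chr2:74715841-74716040: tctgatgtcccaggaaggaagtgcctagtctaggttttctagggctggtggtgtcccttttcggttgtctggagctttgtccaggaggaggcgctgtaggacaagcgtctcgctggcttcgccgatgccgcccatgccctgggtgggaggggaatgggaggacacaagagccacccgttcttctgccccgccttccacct

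HoxA held the strongest of the open promoters. Hoxa4, whose protein patterns the neck and upper trunk, had a signal of 3.38 in replicate 1 and 2.40 in replicate 2, in the units of the deposited lists. Its peak centre lay 228 bases upstream of the start in replicate 1 and 238 bases upstream in replicate 2, and 5 footprints, short protected stretches within accessible DNA, were shared by the libraries. Hoxa7, a gene of trunk patterning, had 1.61 in replicate 1 and 1.50 in replicate 2. The libraries gave close values at Hoxa7 and a lower one in replicate 2 at Hoxa4.

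Hoxa10 and Hoxa13 were on the edge of detection. Hoxa10, a gene of posterior patterning that is also used in blood progenitors, had a main-list peak of 2.23 in replicate 1 and only a longer-list peak of 0.835 in replicate 2. Hoxa13, a gene of limb and hindgut patterning, had 0.993 in replicate 1 and a longer-list peak of 0.718 in replicate 2. At both genes the lowest q-value within 1 kb of a start stayed above 0.001 in replicate 2, at 0.00179 for Hoxa10 and 0.00278 for Hoxa13. Hoxa11 had no peak in any list and a lowest q-value of 0.0275 in replicate 1 alone. The remaining 5 HoxA genes, Hoxa2, Hoxa3, Hoxa5, Hoxa6 and Hoxa9, had no promoter peak in any list and no base with a q-value of at most 0.05 within 1 kb of a start.

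In HoxB, 2 of 10 promoters were open, and the genes are neighbours. Hoxb4, known for its action on blood stem cells, had a signal of 1.49 in replicate 1 and 1.81 in replicate 2. It was the only open Hox promoter with the higher deposited signal in replicate 2, before any allowance for the scales of the libraries. Its peak lay within the gene, 371 and 374 bases downstream of the start. Hoxb5, which also marks blood stem cells, had 1.15 and 0.894, with a peak centre 271 and 270 bases upstream of the start. The other 8 HoxB genes, Hoxb1, Hoxb2, Hoxb3, Hoxb6, Hoxb7, Hoxb8, Hoxb9 and Hoxb13, had no promoter peak in any list.

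HoxC had 1 open promoter of 9, that of Hoxc10, a posterior gene of the lumbar region, with signals of 1.15 in replicate 1 and 0.789 in replicate 2. Hoxc13, a gene of hair and nail formation, was found only in the longer lists, at 0.376 and 0.489. Hoxc9 had a longer-list peak of 0.404 in replicate 2 alone. The remaining 6 HoxC genes, Hoxc4, Hoxc5, Hoxc6, Hoxc8, Hoxc11 and Hoxc12, had no promoter peak in any list. All 9 HoxD genes, Hoxd1, Hoxd3, Hoxd4 and Hoxd8 to Hoxd13, had no promoter peak in either list of either library. In HoxD, no base within 1 kb of a start of these 9 genes had a q-value of at most 0.05.

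**Figure D1:**
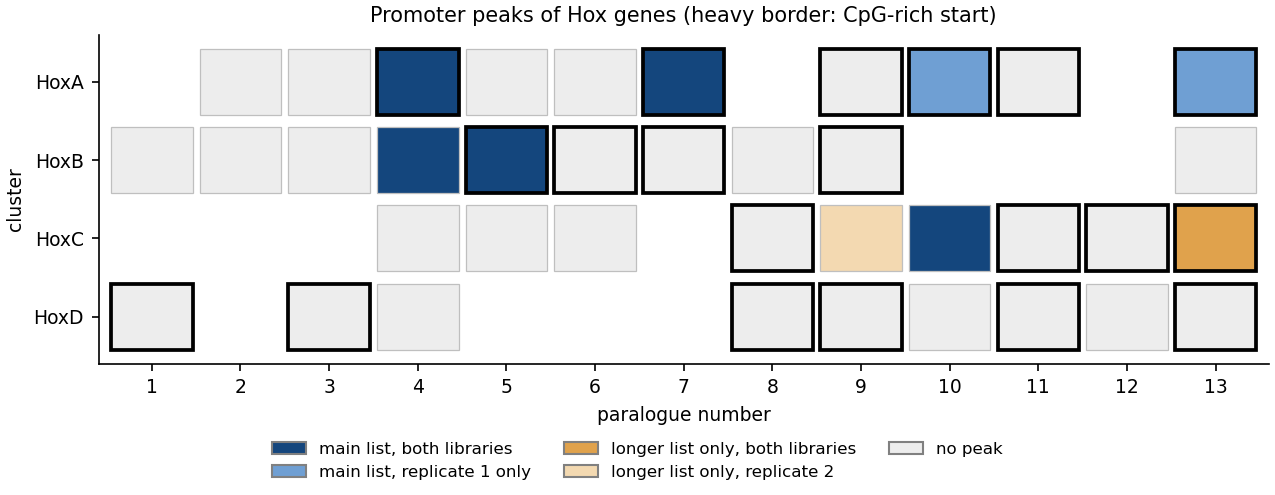
Promoter peaks of the Hox genes described in the text, with clusters as rows and paralogue numbers as columns; fill gives the list and libraries in which a peak was found and a heavy border marks a CpG-rich start. The dark cells of Hoxa4, Hoxa7, Hoxb4, Hoxb5 and Hoxc10 sit at paralogue numbers 4, 5, 7 and 10, and the HoxD row has no promoter peak.

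Ordered by paralogue number, the open promoters fell mostly in the middle of the clusters. Of the 15 genes of groups 4 to 8, 4 were open, and of the 16 posterior genes of groups 9 to 13, 1 was open. Paralogue group 4 had 2 open members of 4, Hoxa4 and Hoxb4, and no other group had more than 1. Paralogue group 3, whose genes are needed for thymus formation in the embryo, had 0 open members of 3. With the longer lists the posterior genes rose to 4 of 16 while the count in groups 4 to 8 stayed at 4 of 15.

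Hox promoters were rarely open whether or not they were rich in CpG. A start was called CpG-rich when the 1000 bases around it had a GC content of at least 55% and a CpG ratio of at least 0.65 of that expected from base composition, and CpG-rich promoters are open in most tissues. Among other genes with a CpG-rich start, 86.1% were open, and 31.6% of those without one. Of the 21 Hox genes with a CpG-rich start, 4 were open (19.0%), and of the 18 without one, 2 were open. With the longer lists, 7 of the 21 were open, against 90.2% of other CpG-rich genes.

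The footprint and q-value files also gave low counts at Hox starts. A footprint lay within 1 kb of a start in both libraries at 8 of 39 Hox genes, against 56.4% of other genes. A base with a q-value of at most 0.001 lay there in both libraries at 6 Hox genes, against 54.2% of other genes. No base with a q-value of at most 0.05 was found in either library at 28 Hox genes, and 36.4% of other genes lacked one. Footprints, q-values and peaks come from the same reads, so they are not separate measurements of these promoters.

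**Figure D2:**
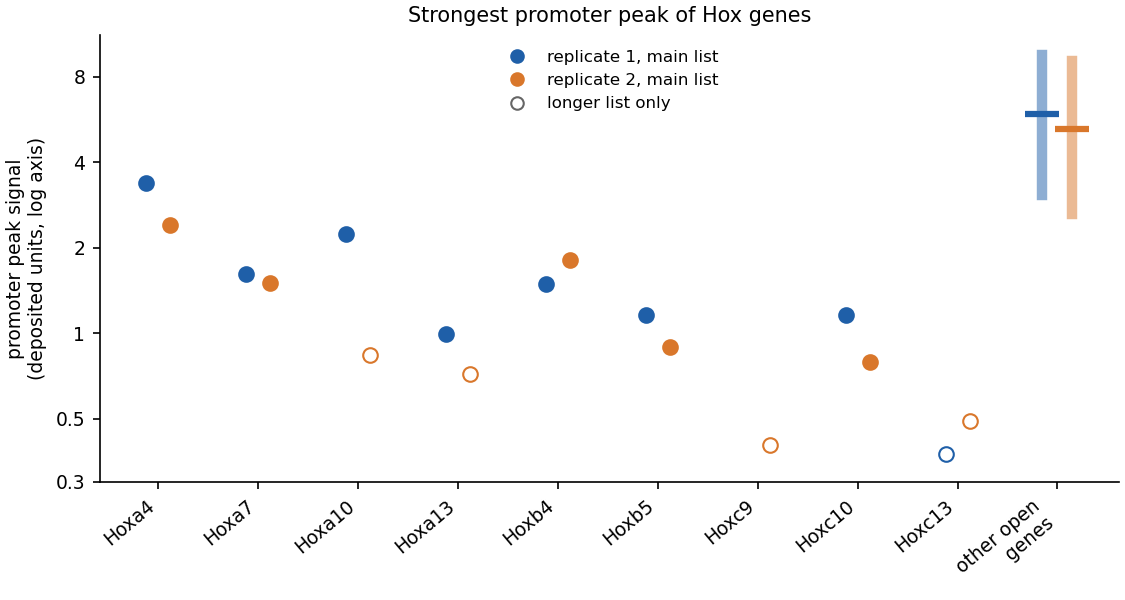
Strongest promoter peak of the Hox genes described in the text that have one, per library, on a log axis in deposited signal units; filled points are main-list peaks, open points longer-list peaks, and the bars at the right give the quartile range and median of other open genes. Every Hox point lies below the medians of other open genes, 5.89 and 5.22, and only Hoxa4 in replicate 1 reaches into a quartile range.

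The open Hox promoters were weak beside other open promoters. Their median signal was 1.49 in both libraries, against a median of 5.89 in replicate 1 and 5.22 in replicate 2 for the other genes open in both libraries. Hoxa4 was stronger than 27.9% of those genes in replicate 1 and 22.5% in replicate 2. Hoxc10, the weakest in replicate 2, was stronger than 6.17% and 4.05% of them. The lower quartile of other open genes was 3.06 in replicate 1 and 2.63 in replicate 2, and the other 5 open Hox genes lay below it in both libraries. Whole thymus holds several cell types, and a weak signal from all cells cannot be told apart from a strong signal in a few cells.

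The tissue label could be checked against marker genes. Promoters of 9 of 10 T cell genes were open (90%), against 53.4% of protein-coding genes outside the Hox set. Cd3e had 5.13 in replicate 1 and 5.99 in replicate 2, and Cd4 had a main-list peak only in replicate 2. Of the markers of other cells the tissue can hold, 3 of 7 thymic epithelial, 2 of 6 fibroblast, 2 of 5 endothelial, 2 of 5 adipocyte, 0 of 5 B cell and 0 of 5 myeloid genes were open. These shares, from 0% to 42.9%, lay below 53.4%, and with so few genes per list they do not show which cells were present. With the longer lists, 2 of 5 B cell and 2 of 5 myeloid genes were open. The epithelial, fibroblast, endothelial and adipocyte counts stayed the same. Among the epithelial markers, the chemokine gene Ccl25 had 9.64 and 7.35, Aire 4.60 and 2.92 and Epcam 1.64 and 1.14, while Foxn1, the defining factor of that lineage, had no promoter peak in any list. The share of these cells in the Hox peaks was not tested. The main lists held 50648 and 49872 peaks, sequencing depth was not stated, and each signal was a whole multiple, within 0.1 steps, of a step of 0.00895 in replicate 1 and 0.00652 in replicate 2.

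Away from the promoters the clusters held further accessible sites. Across the 4 cluster spans, from the first to the last base of the member genes, peaks of both lists and libraries joined into 34 sites. A main list held 24 of them, 15 in both libraries and 9 in replicate 1 alone, and 0 in replicate 2 alone. Of those 9, 6 had a peak in the longer list of replicate 2. Across the genome, 37494 main-list peaks were paired 1 to 1 between the libraries, of 50648 in replicate 1 and 49872 in replicate 2. Of the 15 sites shared in the main lists, 6 lay within 1 kb of a Hox start and 9 (60%) beyond it, near the 58.8% of all 37494 shared peaks that lay over 1 kb from a protein-coding start.

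**Figure D3:**
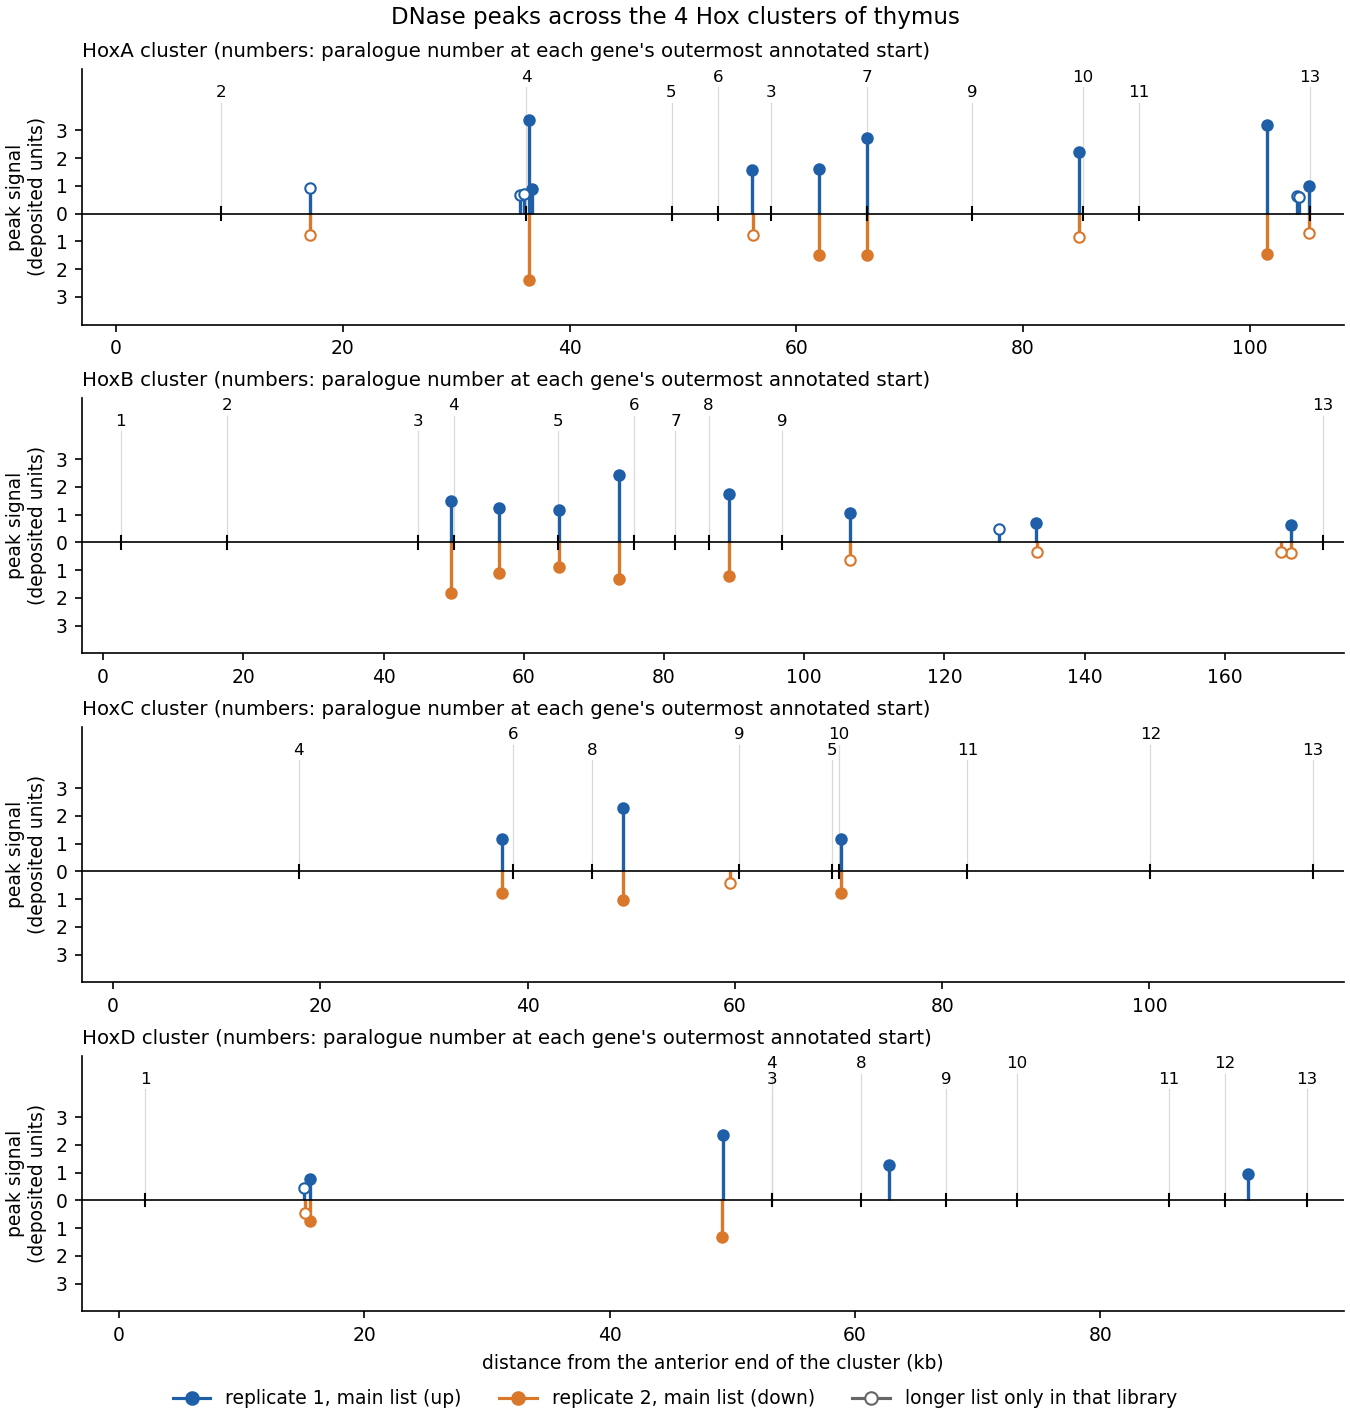
Peak signal of the sites described here across the 4 Hox clusters by distance in kb from the anterior end, the one with the low paralogue numbers, with replicate 1 upward and replicate 2 downward; filled points are main-list peaks, open points longer-list peaks, and numbers give each gene's paralogue number at its outermost start. Shared sites of HoxB lie between Hoxb4 and Hoxb9, and the Hoxb1 to Hoxb3 end of HoxB and the Hoxc11 to Hoxc13 end of HoxC have no peak within the span.

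In HoxA the shared site over 1 kb from a start with the highest mean signal lay between Hoxa11 and Hoxa13. Its signal was 3.18 in replicate 1 and 1.46 in replicate 2. It lay close to 9530018H14Rik, a transcript model that the annotation gives no settled type. A site 3130 bases upstream of the nearest Hoxa7 start used here had 2.73 in replicate 1 and 1.48 in replicate 2. It lies 13 bases from the start of a longer Hoxa7 transcript that the basic annotation leaves out, and with all annotated starts 8 of the 15 shared sites, not 9, were over 1 kb from a Hox start. Both sites were stronger than the Hoxa7 promoter in replicate 1 and close to it in replicate 2. The main-list site nearest to a promoter that the window left out lay 1394 bases downstream of a Hoxa3 start, with a main-list signal of 1.56 in replicate 1 and a longer-list signal of 0.789 in replicate 2. Inside the window, the strongest main-list peak of each open gene described here lay at most 374 bases from a start, at Hoxb4. A second, weaker Hoxa4 peak, in the main list of replicate 1 alone, had 0.886 and lay 493 bases upstream.

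HoxB had 3 shared sites beyond promoters, all between Hoxb4 and Hoxb9. The site in an intron of Hoxb6 had 2.42 in replicate 1 and 1.30 in replicate 2. A site 2934 bases upstream of Hoxb8 had 1.74 and 1.21. A site 6516 bases upstream of Hoxb4 had 1.25 and 1.10. Together with the Hoxb4 and Hoxb5 promoters they form the only stretch of HoxB with peaks shared in the main lists, and the 49.5 kb from Hoxb4 to the end of Hoxb1, which holds the starts of Hoxb1, Hoxb2 and Hoxb3, had none in any list.

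HoxC had 2 shared sites beyond promoters. The stronger lay in an intron of Hoxc5, 2976 bases upstream of Hoxc8, with 2.30 in replicate 1 and 1.04 in replicate 2. The other, in introns of Hoxc5 and Hoxc6, had 1.16 and 0.776. A stretch of 45.4 kb at the posterior end, with the starts of Hoxc11, Hoxc12 and Hoxc13, had no peak in any list inside the span, and the longer-list peak of Hoxc13 lay 210 and 212 bases upstream of its start, outside the span.

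HoxD was open at 2 shared sites although none of its coding promoters was. The stronger lay in introns of Hoxd3 and Hoxd4, 35 bases from the start of the antisense RNA gene Hoxd3os1, and had 2.37 in replicate 1 and 1.34 in replicate 2. The other lay 955 bases from the start of Haglr, a long noncoding RNA gene, and had 0.778 and 0.757. Among the 43 noncoding genes inside the 4 spans, 5 had a peak within 1 kb of a start in both libraries, against 9.69% of 33432 noncoding genes elsewhere. Of these, 3 had peaks away from coding starts: Hoxd3os1, Haglr and 9530018H14Rik. The 7 microRNA genes of the clusters, among them Mir10a, Mir10b and Mir196b, had 0 open starts, against 10% of 2195 other microRNA genes.

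The libraries differed at most Hox sites in 1 direction. Replicate 1 had the higher deposited signal at 14 of the 15 shared sites. Because scales can differ between libraries, log2 ratios of replicate 2 over replicate 1 were centred on the median of 37494 shared peaks, which was -0.17 before centring. After centring, 11 of 15 Hox sites were below 0, with a median of -0.35, and the quartiles of all shared peaks were -0.34 and 0.27. The 6 sites within 1 kb of a Hox start had a median of -0.06 and the 9 sites beyond had one of -0.65. The 9 include the site at the start of the longer Hoxa7 transcript, at -0.71. The lowest values were those of the site upstream of Hoxc8, at -0.98, and of the Hoxa11 to Hoxa13 site, at -0.95. They lay at percentiles 2.73 and 3.20 of all shared peaks. With 1 library each, these differences have no replicate check.

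**Figure D4:**
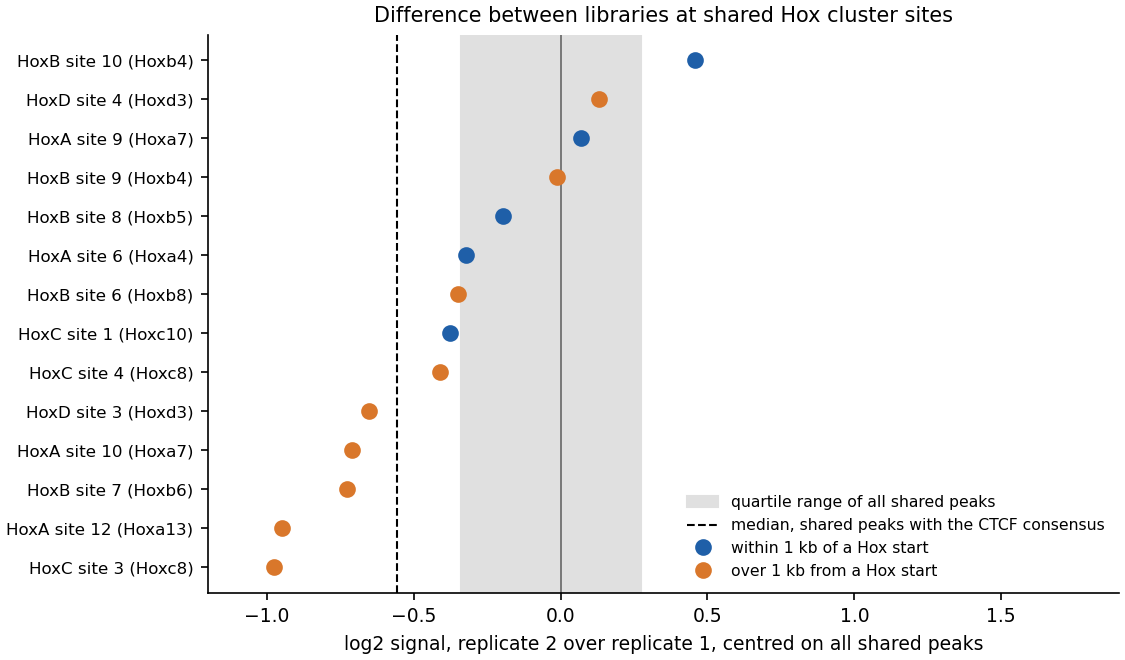
Log2 signal of replicate 2 over replicate 1 at 14 of the 15 shared Hox cluster sites, centred on all shared peaks; points are coloured by distance to a Hox start, the grey band is the quartile range of all shared peaks and the dashed line the median of shared peaks with the CTCF consensus. The 5 lowest points, from -0.65 to -0.98, all lie over 1 kb from a Hox start of the basic annotation. The point at -0.71 lies 13 bases from the start of a longer Hoxa7 transcript outside that annotation.

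Peaks with the CTCF motif also differed between the libraries across the genome. The 3941 shared peaks with an exact CTCF consensus had a median centred log2 ratio of -0.56, and 92.5% of them were below 0. Shared promoter peaks had a median of 0.02. Shared peaks over 1 kb from starts without the exact consensus had one of 0.08. None of the Hox cluster peaks held the exact consensus, 0 of 24 in replicate 1 and 0 of 15 in replicate 2, against 11.2% and 8.10% of all peaks. With at most 1 mismatch, 6 of 24 and 2 of 15 Hox peaks matched, against 32.0% and 24.9% of all peaks, and the shared matches were the site upstream of Hoxb8 and the site at the start of the longer Hoxa7 transcript. The part of CTCF in the difference at the Hox sites was not tested.

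Reading the sequences printed above showed the 8 letters GGTGGCGC in the Hoxa11 to Hoxa13 site, the Hoxb5 promoter and the site upstream of Hoxc8. Searched on both strands, these letters occur in 4 of 24 Hox peaks in replicate 1 and 4 of 15 in replicate 2, against 3.89% and 3.33% of all peaks, and because they were chosen after these sequences were seen, the counts describe these sites and support nothing. All 4 copies are on the plus strand and overlap a footprint in both libraries. The 4 sites had centred log2 ratios from -0.98 to -0.20, and the 1440 shared peaks with these letters across the genome had a median of -0.30.

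TGATNNAT, the motif of HOX proteins with PBX partners, occurred in 2 Hox cluster peaks in each library, among them the promoter peak of Hoxa4. That is 8.33% of 24 peaks in replicate 1 and 13.3% of 15 in replicate 2, against 2.73% and 2.78% of all peaks. The copy in the Hoxa4 promoter overlapped a footprint in replicate 1 and none in replicate 2. The homeodomain core TAATTA and the retinoid response element with AGGTCA repeats spaced by 5 bases occurred in 0 of the Hox peaks. The letters GGGCGG, which SP and KLF factors bind, were in 10 of 24 and 6 of 15 Hox peaks, against 31.9% and 32.2% of all peaks. TGTGGT, bound by the RUNX factors of T cells, was in 3 of 24 and 0 of 15 Hox peaks, against 15.7% and 16.8% of all peaks. CCGGAA, bound by ETS factors, was in 2 of 24 and 1 of 15, against 13.1% and 13.8%. The E-boxes CAGCTG and CAGGTG, bound by E proteins, were in 2 and 1 of the Hox peaks of each library, against 16.8% and 23.6% of all peaks in replicate 1. The NRF1 motif was in 0 Hox peaks, against 3.46% and 3.48% of all peaks.

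**Figure D5:**
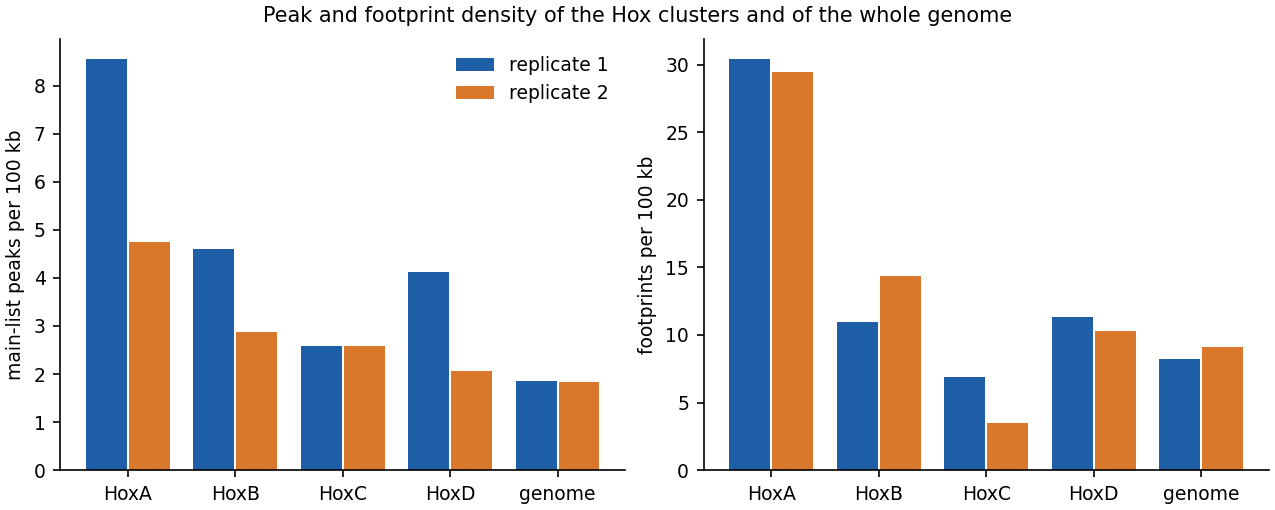
Main-list peaks and footprints per 100 kb in each Hox cluster and in the whole genome, with 1 bar per library. HoxA has the tallest bars in both panels, 8.55 and 4.75 peaks per 100 kb, and HoxC has fewer footprints per 100 kb than the genome in both libraries.

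Counted by length over all main-list peaks, the clusters were not poor in peaks. With only the stronger 50% of peaks, HoxA had 3.80 per 100 kb in replicate 1 and 4.75 in replicate 2. The genome had 0.930 and 0.917. HoxB had 1.15 and 0.575 and HoxD 1.03 and 0, above the genome in replicate 1 and below it in replicate 2. HoxC had 0.864 and 0, below the genome in both. Peaks per 100 kb came to 6.65 ± 2.69 in HoxA, 3.74 ± 1.22 in HoxB, 2.59 in both libraries in HoxC and 3.10 ± 1.46 in HoxD (SD, n = 2 libraries), against 1.84 ± 0.02 in the genome. Start sites of protein-coding genes are far denser there, with 18.0 per 100 kb in HoxA, 8.05 in HoxB, 8.64 in HoxC and 14.5 in HoxD, against 1.52 in the genome. Footprints per 100 kb were 29.9 in HoxA, 12.6 in HoxB, 5.18 in HoxC and 10.8 in HoxD, against 8.64 in the genome, as means of the libraries. The share of bases with a q-value of at most 0.001 was 1.54% in HoxA, and 0.657% in HoxB, 0.560% in HoxC and 0.670% in HoxD lay near the genome's 0.669%. HoxB runs over a long stretch without protein-coding genes between Hoxb9 and Hoxb13. From Hoxb9 to Hoxb1 alone the cluster had 5.17 peaks per 100 kb in each library.

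Genes beside the clusters were open at a share not far above that of other genes. Of the 16 flanking genes, the nearest 2 on each side of each cluster, 11 were open (68.8%), against 53.4% of other genes. Skap2, which lies 143 kb from HoxA and encodes an adaptor of immune cell signalling, had 15.2 in replicate 1 and 14.6 in replicate 2. Skap1, an adaptor of T cell receptor signalling that lies 96.3 kb from HoxB, had 2.62 and 2.34. The homeobox genes Evx1 and Evx2, which sit at the posterior ends of HoxA and HoxD and derive from the same ancestral cluster, had no promoter peak in any list. The 100 kb next to the anterior end of HoxB held 6 peaks in replicate 1 and 7 in replicate 2, while the 100 kb on the posterior side of HoxC held 0 in both.

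Genes that act with or on Hox genes were mostly open, at shares above the 53.4% of other genes and near the 86.1% of those with CpG-rich starts. Of the 9 TALE homeodomain genes, whose products bind DNA together with HOX proteins, 8 were open (88.9%), with Pknox1 at 19.0 in replicate 1 and 16.8 in replicate 2, Pbx4 at 11.7 and 12.9, Pbx3 at 9.68 and 5.60, and Meis1, the partner of HOXA proteins in blood stem cells, only at 0.778 and 0.887. Meis2 was open only in the longer lists. Of the 22 Polycomb and Trithorax genes, which keep Hox clusters silent or active, 20 were open (90.9%). Kdm6a, a demethylase that removes the Polycomb mark, had the highest mean signal of these, 22.1 ± 4.13 (SD, n = 2), followed by Cbx8, a Polycomb subunit that reads the histone mark, at 16.1 and 18.8, and Jarid2, a Polycomb partner, at 13.7 and 13.8. Ezh2, the enzyme that places the mark, had 9.24 and 11.1. All 8 genes for CTCF, cohesin subunits and factors that load or release cohesin were open, with the cohesin subunits Smc3 at 15.4 and 14.7 and Stag1 at 17.2 and 12.4, and Ctcf at 10.6 and 9.80.

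The inducers of Hox genes in the embryo were less uniform. Of the 8 genes for retinoic acid receptors, its enzymes and the CDX factors, 3 were open (37.5%), against 53.4% of other genes: Rara at 4.86 and 5.71, Rarg at 2.22 and 2.12, and Aldh1a2, which makes retinoic acid, at 0.859 and 0.554. Cdx1, Cdx2 and Cdx4, homeobox genes that activate middle Hox genes, had no promoter peak in any list. Of the 7 genes of the pharyngeal pouch network, in which paralogue group 3 genes act, 4 were open (57.1%), near that share, with low signals, such as Tbx1 at 1.11 and 0.887, Pax9 at 0.600 and 0.704, and Eya1 at 0.394 and 0.535. Pax1 had no promoter peak in any list.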

How the data were processed

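DNase-seq had been run on 2 thymus libraries of 1 group. Per the file headers and the labels, files were made per library on mm10. How reads were aligned and peaks called is not given in the sources used here. For each library the authors deposited 2 peak lists with 1 signal per peak, a footprint list and q-values per run of bases of at most 0.05. The signal has no stated scale. Members and lists were chosen with earlier results of these data known.

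The shorter peak list was the main list. Peaks were placed by their centre against 41408 start sites of the basic GENCODE M21 annotation. Sites are unions of overlapping peaks (1 bp). No p-value was computed, since genes and sites are not replicates and there is 1 group. The rule names every Hox gene, the 2 nearest flanking genes on each side of a cluster, noncoding genes open away from coding starts, and the 3 list genes with the highest mean signal. Other list genes, such as Meis1, Ezh2, Cd3e and genes without a peak, were named after their values were seen. Some items it covers are not reported here. Of the 10 motifs, the CTCF consensus was also searched with 1 mismatch. That search, the GGTGGCGC search, the HoxB span without Hoxb13 and the use of all annotated starts were chosen after seeing the data. Scripts ran in Python 3.11.15 with numpy 2.4.6, pandas 2.3.3 and matplotlib 3.10.9 and were tested on simulated data. Sequencing depth is unknown, so no counting interval is given.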

Additional observations from a re-analysis of the deposited data

How the results depend on the processing

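The same 6 Hox genes were open under any overlap with the window and a window of 500 bp. At 2500 bp 1 more was added (Hoxb6), and with all annotated starts 1 more (Hoxc5), both counts being 7. Hoxc5 was counted through the promoter peak of Hoxc10, so it brought no further site. With only the most upstream start the count was 5, without Hoxa7. With only the stronger 50% of peaks of each library 1 stayed, Hoxa4, while 46.3% of other genes were open. Replicate 1 alone gave 8 and replicate 2 alone 6. Footprint counts were 8 to 10 and counts of low q-values 5 to 9 over the settings tried. Peaks per 100 kb with the longer lists were 10.9 in HoxA, 5.17 in HoxB and 3.02 in HoxC, against 2.87 in the genome. HoxC had 2.59 in replicate 1, below the genome's 2.84, and 3.46 in replicate 2, above the genome's 2.90. With the stronger 50% the means of the libraries were 0.862 in HoxB, 0.432 in HoxC and 0.516 in HoxD, below the genome's 0.923. HoxA had 4.27, above it. In replicate 1 alone HoxB (1.15) and HoxD (1.03) were above the genome's 0.930. HoxC with 10 kb added on each side had 2.21, and HoxB without the stretch to Hoxb13 had 5.17. The causes were not tested. Sequencing depth is not given, so an absent peak says only that none was listed.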
